A study of Drosophila melanogaster with 3 samples.

Results

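Wingless signalling runs from receptors at the cell surface, through a cytoplasmic complex that destroys beta-catenin when no ligand is present, to a DNA-binding factor in the nucleus. In the Drosophila wing disc, the larval precursor of the adult wing, Wingless patterns the wing margin and supports growth of the pouch, and several genes of the pathway are switched by the signal itself and feed back on it. Anti-HA CUT&Tag peaks are described here at 10 such genes: the receptor genes fz, fz2 and fz3, the co-receptor gene arr, the destruction complex genes Axn and sgg, the transducer genes arm and pan, and the feedback genes nkd and Notum. They were chosen by name, out of 17807 annotated genes on the main chromosomes as a pathway group; the choice used no threshold on peak values but was made with earlier results of these data known. A peak belongs to a gene here when it overlaps the gene's span in the dm6 assembly, or the 5 kb on either side of it.

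CUT&Tag tethers a transposase to an antibody, so that DNA beside the antibody's target is tagged and sequenced. The 3 libraries form 1 group. They were made with an anti-HA antibody from wing discs of third-instar larvae of genotype nub>GFP;UAS-BunA-HA, in which nub-Gal4, a driver active in the wing pouch, expresses GFP and an HA-tagged BunA isoform of bunched ectopically. Larvae were raised at 25 °C and discs were dissociated at 37 °C. Libraries are numbered replicates 1 to 3, which have the numbers 2, 3 and 4 in their labels, and nothing in the labels says that they came from separate crosses. No library without the tagged protein was analysed here, so the part of open chromatin or of antibody background in any peak was not tested.

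The lists hold 9268, 9005 and 9225 peaks, and 64, 66 and 71 of them fell at the 10 genes in replicates 1, 2 and 3. Overlapping peaks were merged, and a region to which all 3 libraries contributed a peak is called a consensus region. The value of a region in a library is the fold enrichment of its highest peak, the authors' ratio of signal at the summit to the background estimated by the peak caller. Its centre is the mean of its summits, and distances are measured from there. Its percentile is its mean rank by fold among the peaks of each library, on a scale that ends at 100 for the highest. Median fold over all peaks was 6.61, 7.15 and 6.98 in the 3 libraries. Peak lists measure no expression, so they cannot check the labelled tissue, and positions at marker genes are given as a description only. Consensus regions lay at all 4 wing pouch genes examined (nub, vg, rn and Dll), all 4 notum genes, 2 of 3 muscle precursor genes and 1 of 3 haemocyte genes, in windows where 40.2% of all protein-coding genes and 65.3% of those of 10 to 20 kb held one.

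Every one of the 10 Wingless genes held at least 1 consensus region, from the receptors to the feedback inhibitors. Over all protein-coding genes the share was 40.2%, and over the 2082 protein-coding genes at least as long as arm, the shortest of the 10 at 9.2 kb, it was 67.4%. Without flanks all 10 still overlapped a consensus region, against 16.1% of all protein-coding genes and 53.5% of the long ones. Together the genes held 49 consensus regions, with a further 14 regions of 2 libraries and 20 of 1 library. Thus 59.0% of their regions recurred in all libraries, where the share over the genome was 53.1%. Fewer cells with a tagged site and a weaker signal per cell cannot be told apart in such whole-disc libraries.

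Most of the genes held more consensus regions than the median gene of their length, while the strength of these regions was close to that of consensus regions in general. Consensus regions numbered 8 at fz and at sgg, 7 at fz2, 6 at arr and at nkd, 4 at fz3 and at pan, 3 at Notum, 2 at Axn and 1 at arm. The 5 genes with 5 or more compare with 2.52% of protein-coding genes and 12.0% of the long ones. These 5 genes are all 29.6 kb or longer, whereas the long ones start at 9.2 kb, so length classes are the closer comparison. The median numbers in the length classes of these genes were 3 for fz and fz2, 2 for arr, nkd, pan and sgg, and 1 for the other four, so that arm stood at its median and the others above it. At sgg, arr and fz3 the number exceeded the 90th percentile of the class. The 7 of fz2, the 4 of pan and the 2 of Axn only equalled the upper quartile of their classes. The median fold of the 49 regions was 7.99, against 8.20 over all 5768 consensus regions, and 12.2% of them ranked at percentile 90 or more, against 12.5%.

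**Figure D1:**
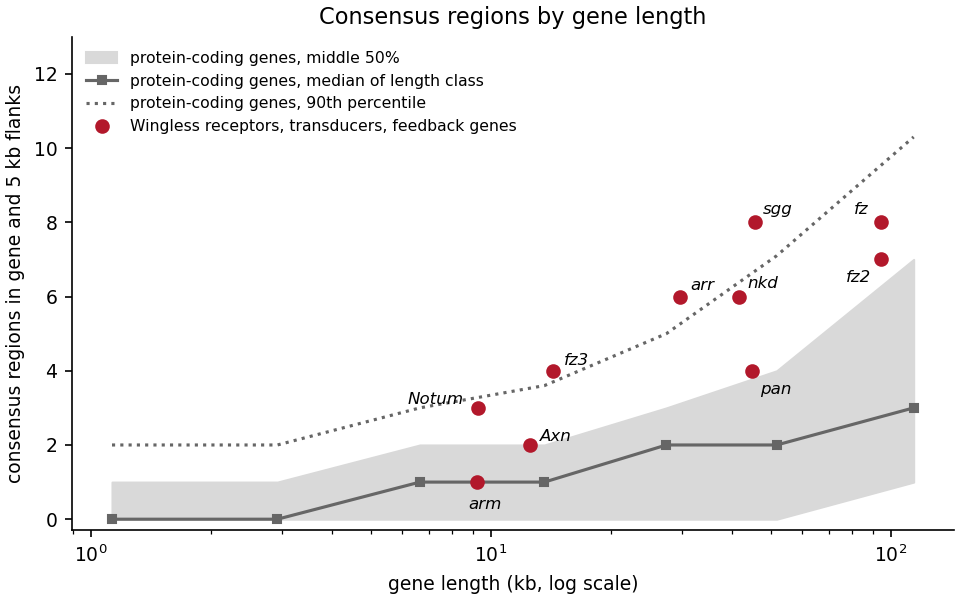
Number of consensus regions in the gene and its 5 kb flanks against gene length in kb (log scale). Red points are the 10 Wingless genes, and the grey line, band and dotted line are the median, the middle 50% and the 90th percentile of protein-coding genes in 7 length classes; arm lies on the median and sgg, arr and fz3 above the dotted line.

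The Frizzled receptor gene fz had its strongest region beside one end of the gene. fz (Dmel_CG17697) spans 14274343 to 14368639 on 3L, 94.3 kb, and encodes a membrane receptor that acts with fz2 in Wingless reception and also orients cells in the plane of the epithelium. The region at chr3L:14274089-14274432, centred 147 bp outside the lower-coordinate end, had folds of 18.4, 14.6 and 19.3 in replicates 1 to 3, a mean of 17.4 ± 2.51 (SD, n = 3) at percentile 96.3. It was the highest region of fz in every library, and replicate 2 was the low one. A second region 1395 bp outside the same end, at chr3L:14272773-14273116, had 10.4, 12.9 and 9.69, and here replicate 2 was the high one.

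The other 6 consensus regions of fz lay inside the gene and were weaker, with means from 6.0 to 8.56. They were spread over the span, at 6.4, 29.5, 47.6, 76.3, 77.0 and 90.3 kb from the lower-coordinate end. The region at 47.6 kb varied most between libraries, with 5.90, 11.5 and 8.31, and its summits lay up to 277 bp apart. Between 47.9 kb and the region at 76.3 kb no consensus region was found over 28.2 kb, although 2 regions of fewer libraries lay there. The strand of the genes was not used here, so neither end of a gene is called its start.

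At fz2, the high-affinity Wingless receptor gene, which Wingless signalling is known to repress in the wing disc, the strongest regions lay deep inside the gene. fz2 (Dmel_CG9739) spans 19140975 to 19235373 on 3L, 94.4 kb. The region at chr3L:19194370-19194792, 53.5 kb from the lower-coordinate end, had folds of 14.6, 13.4 and 13.7 (13.9 ± 0.612; percentile 91.5). A wide region of 659 bp at chr3L:19183733-19184391, 43.1 kb in and within the non-coding gene lncRNA:CR45941, had 11.5, 13.8 and 14.7 (13.3 ± 1.68). The libraries did not share an order here: the first region was higher in replicate 1 and the other in replicates 2 and 3.

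Of the 7 regions of fz2, 4 formed 2 close pairs. The one at 53.5 kb stood 179 bp from a region with 9.24, 11.3 and 10.3. Another pair lay 31.3 and 31.8 kb in, with 236 bp between its members, and included the widest region of all 49, 879 bp, at chr3L:19171600-19172478, with 10.3, 9.43 and 11.1. Beside the lower-coordinate end, 381 bp outside it, a weaker region had 8.98, 8.80 and 6.65. No consensus region lay in the last 45.6 kb of the window, from 53.8 kb in to 5 kb beyond the far end, where a single peak of 1 library was the only other signal. At fz the strongest region thus lay at an end and at fz2 inside. The ranges of these values over the libraries, 14.6 to 19.3 and 13.4 to 14.6, met without overlapping. The fz2 region at 43.1 kb reached 14.7 in replicate 3, though, above the 14.6 of fz in replicate 2.

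fz3, a Frizzled family gene that Wingless induces and whose product dampens the signal, had the lowest strongest region of the 10 genes by mean over libraries, although within each library the highest value at nkd was lower. It (Dmel_CG16785) spans 769945 to 784222 on X, 14.3 kb. A pair of regions, 226 bp apart, straddled its lower-coordinate end. The outer one, chrX:769559-769719, had folds of 9.71, 7.47 and 6.75, and the inner one, chrX:769946-770086, centred 53 bp inside the gene, had 6.42, 9.38 and 7.01. The libraries overlapped between the pair, and replicates 1 and 2 ranked its members in opposite ways. The strongest region by mean, with 6.12, 10.025 and 9.58 (8.58 ± 2.13), lay 455 bp beyond the other end but only 69 bp from tw, a protein mannosyltransferase gene. A region with 6.10, 6.20 and 7.21, 4.7 kb outside the gene, lay 62 bp from lncRNA:CR44966 and is nearer to RpL22 than to fz3. No consensus region was centred in the remaining 14.5 kb between the inner region and the far one, where 4 regions had peaks in 2 libraries.

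arr, which encodes the LRP-family co-receptor needed with the Frizzled proteins, had a strong region inside the gene and another at its end. It (Dmel_CG5912) spans 13453640 to 13483229 on 2R, 29.6 kb. The inner region at chr2R:13476357-13476793 had folds of 12.9, 15.0 and 14.2 (14.0 ± 1.04; percentile 91.8), and lay 828 bp from CG43192, a gene within the span of arr. The region at chr2R:13483204-13483336, centred 23 bp outside the higher-coordinate end and 260 bp from the neighbour cbc, had 14.0, 12.4 and 12.3 (12.9 ± 0.934). The libraries of these regions overlapped, with replicate 1 higher at the end and replicates 2 and 3 higher inside. The other 4 regions were weaker, with means from 4.79 to 7.53, and 3 of them lay over 9 kb from both ends.

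**Figure D2:**
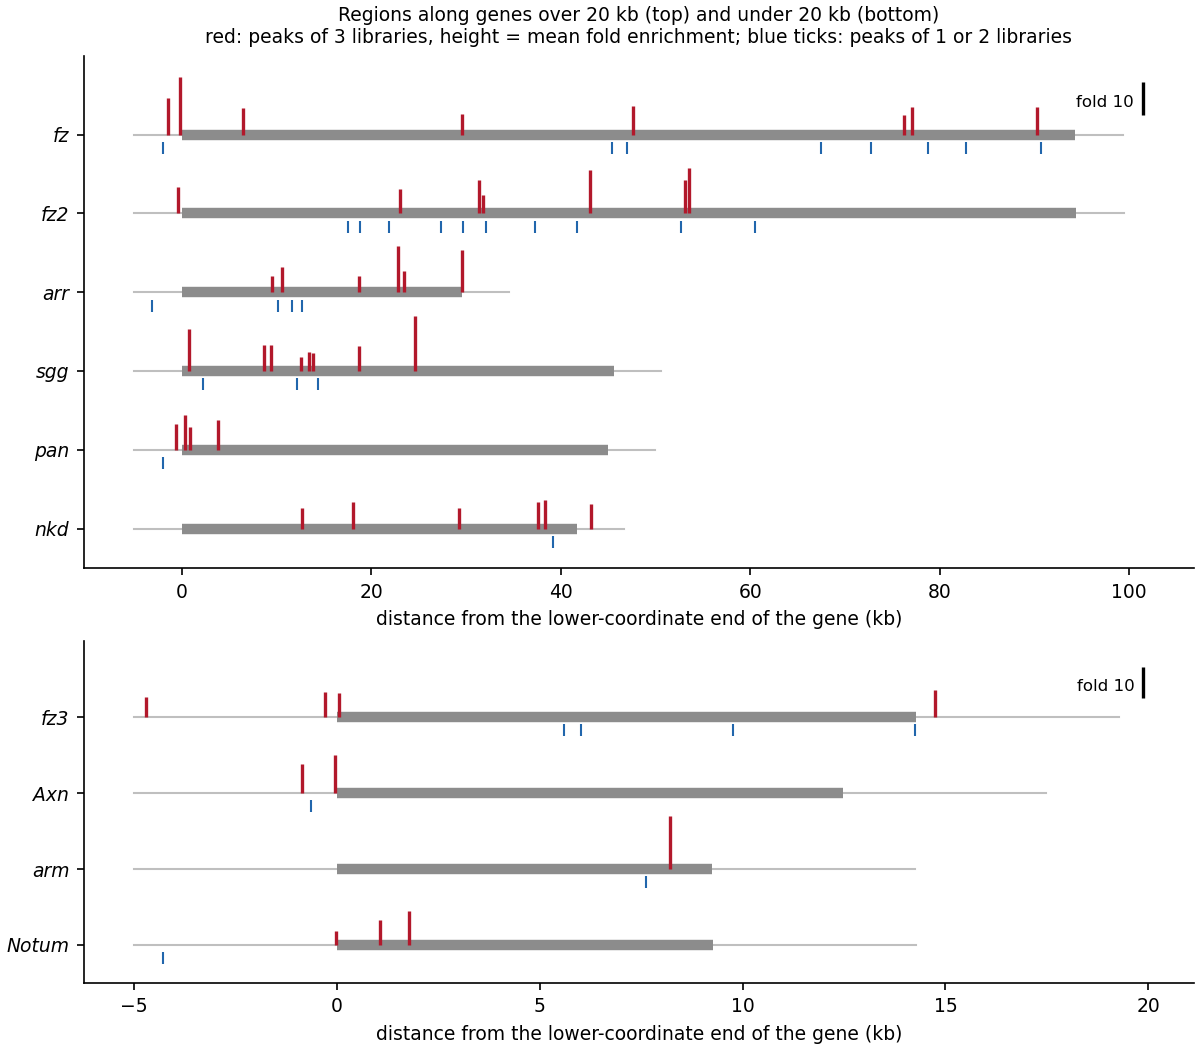
Position of every region along the 6 genes over 20 kb and the 4 genes under 20 kb, as distance in kb from the lower-coordinate end (thick grey, gene; thin grey, 5 kb flanks). Red bars are consensus regions with height set by mean fold enrichment, and blue ticks are regions with peaks in 1 or 2 libraries; the far parts of fz2 and pan hold no red bar, and the regions of Axn lie at one end only.

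Axn and sgg encode the scaffold and the kinase of the complex that marks beta-catenin for destruction, and their patterns differed. Axn (Dmel_CG7926) spans 30022842 to 30035311 on 3R, 12.5 kb, and was the only gene of the 10 with no region centred inside it. Its strongest region, chr3R:30022692-30022873, overlapped the lower-coordinate end and had folds of 11.8, 10.8 and 14.1 (12.2 ± 1.69; percentile 86.1). It was centred 62 bp from Axn and 132 bp from RpS28a, a ribosomal protein gene, so the 2 genes share it. The other region, with 8.19, 9.21 and 9.81, was centred within Mgat2 and lay 861 bp outside Axn. The remaining 17.4 kb of the window held no peak of any library.

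sgg, the glycogen synthase kinase gene, held 8 consensus regions, all of them inside the span. It (Dmel_CG2621) spans 2633952 to 2679553 on X, 45.6 kb. The region at chrX:2658412-2658793, 24.6 kb from the lower-coordinate end and 21.0 kb from the other, had folds of 16.7, 16.3 and 17.1 (16.7 ± 0.410; percentile 96.3), with an SD of 2.46% of the mean. The region nearest to an end, chrX:2634633-2634790, 773 bp inside, had 9.52, 18.6 and 10.2 (12.8 ± 5.07). Replicate 2 alone was high there, and the SD was 39.6% of the mean, the widest of the 49 regions, while the summits of the 3 libraries fell on the same base.

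Between them, from 8.7 to 18.7 kb in, sgg had 6 weaker regions with means from 4.24 to 7.82. Of these, the regions at 8.7 and 9.4 kb were 499 bp apart, and those at 13.4 and 13.8 kb were 224 bp apart. The region at 9.4 kb was high in replicate 1 alone, with 11.1 against 5.61 and 6.56. Beyond the strongest region no peak of any library was found for 25.8 kb, to the end of the window.

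At arm, the beta-catenin gene, a single consensus region stood among the strongest of the set. arm (Dmel_CG11579) spans 1891401 to 1900646 on X, 9.2 kb. The region at chrX:1899515-1899711 had folds of 15.1, 20.3 and 14.5 (16.6 ± 3.22; percentile 95.6). Replicate 2 was again the high one, and all 3 values exceeded every value of pan, Notum, nkd and fz3 at their strongest regions. The region was centred 1025 bp inside the higher-coordinate end and 1078 bp from Ldaf1, the neighbouring gene. Besides arm, 3 protein-coding genes have it in their 5 kb windows: Ldaf1, CG32801 and Edem1. The only other region had peaks in replicates 2 and 3.

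pan, which encodes the TCF factor through which Arm acts on target genes, had all 4 of its regions at one end. pan (Dmel_CG34403) spans 69326 to 114270 on chromosome 4, 44.9 kb. The region at chr4:69584-69764, 342 bp inside the lower-coordinate end, had folds of 10.6, 10.4 and 10.8 (10.6 ± 0.234; percentile 80.4). A region 558 bp outside had 6.75, 8.81 and 8.14, one 910 bp inside had 6.59, 7.15 and 6.79, and one 3.9 kb inside had 10.6, 8.73 and 8.26. The strongest exceeded each of these in every library, though by very little over the last in replicate 1. From 4.0 kb in, the remaining 45.9 kb of the window held no peak in any library. The ribosomal protein gene RpS3A lies beside the same end, 1561 bp from the outermost region.

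The strongest regions of the feedback genes nkd and Notum stood at percentiles 67.7 and 79.4. nkd (Dmel_CG11614), whose product binds Dishevelled and restrains the signal, spans 19003741 to 19045449 on 3L, 41.7 kb. Its 6 regions had means from 6.13 to 8.67. The highest, chr3L:19041959-19042391, had folds of 8.66, 8.66 and 8.69 (8.67 ± 0.0199), the smallest spread of the 49. It stood 309 bp from a region of 693 bp with 7.09, 8.49 and 8.23. In replicate 1 another region, of 699 bp and 18.1 kb in, was higher, with 9.27. Regions of nkd were wide: 4 of the 6 exceeded 400 bp, where 10 of all 49 (20.4%) and 15.4% of all consensus regions did.

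Notum (Dmel_CG13076), which encodes a secreted enzyme that removes the lipid Wingless needs for signalling, spans 16023480 to 16032752 on 3L, 9.3 kb. Its strongest region, chr3L:16025011-16025334, 1.8 kb inside the lower-coordinate end, had folds of 9.46, 11.2 and 11.1 (10.6 ± 0.968; percentile 79.4). A region 366 bp before it had 9.26, 6.51 and 8.31. At the end itself, centred 30 bp outside, a weak region had 4.53, 5.01 and 3.22 (4.25 ± 0.925), among the lowest of the 49 and at percentile 11.0. The 12.4 kb after the strongest region held no peak. All 3 regions lay in the window of no other protein-coding gene.

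Ordered by the mean of the strongest region, the genes ran fz, sgg, arm, arr, fz2, Axn, pan, Notum, nkd and fz3, from 17.4 to 8.58. Since each value is the highest of several regions at most genes, the order is a description. The ranges over the libraries overlapped for 8 of the 9 neighbouring pairs, the exception being Notum over nkd, and for 14 of all 45 pairs. fz, sgg and arm held the first 3 places, in this order, by mean and in replicates 1 and 3. In replicate 2 the order was arm, sgg, arr and then fz. The region with the highest mean was also the highest of its gene at 7, 8 and 9 of the 10 genes in replicates 1, 2 and 3.

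**Figure D3:**
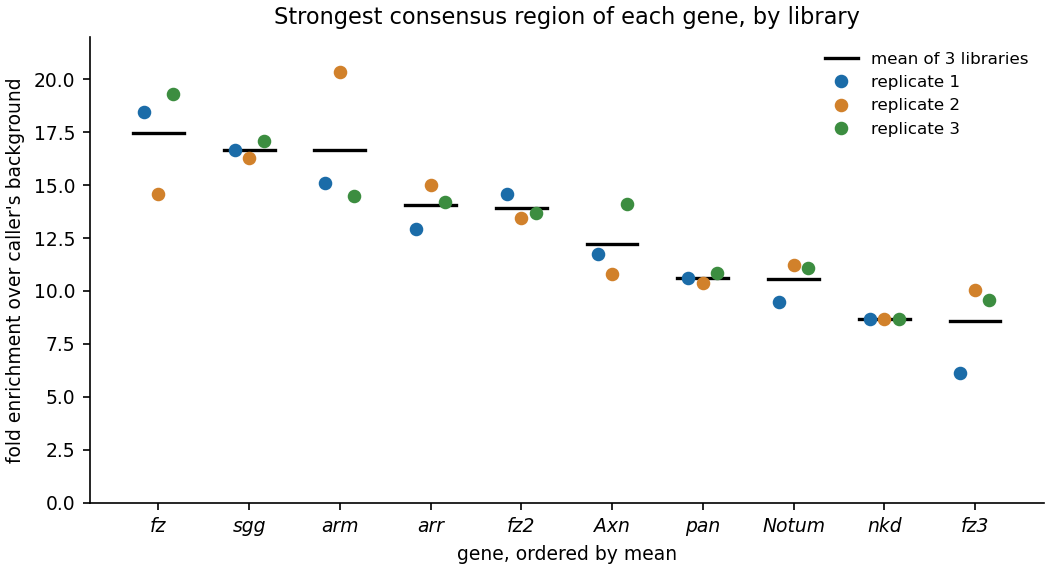
Fold enrichment over the caller's background (linear axis from 0) at the strongest consensus region of each gene. Points are the 3 libraries and the bar is their mean; replicate 2 is the highest point at arm and the lowest at fz, and the libraries at nkd lie on each other.

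A region of percentile 90 or more was found at 5 of the 10 genes, fz, fz2, arr, arm and sgg, where 9.38% of protein-coding genes and 22.3% of the long ones had such a region. These genes held 6 such regions, of which fz2 had 2. By region the share was 12.2% of the 49, against 12.5% of all consensus regions, and the long genes were not matched in length. The 6 regions were centred inside the gene at fz2, arr, arm and sgg. Only at fz was the centre outside, where the region overlapped the end of the gene. The lowest percentiles of the 49 were 9.14 at sgg, 11.0 at Notum and 19.96 at arr, so sgg and arr held both some of the strongest and some of the weakest regions.

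**Figure D4:**
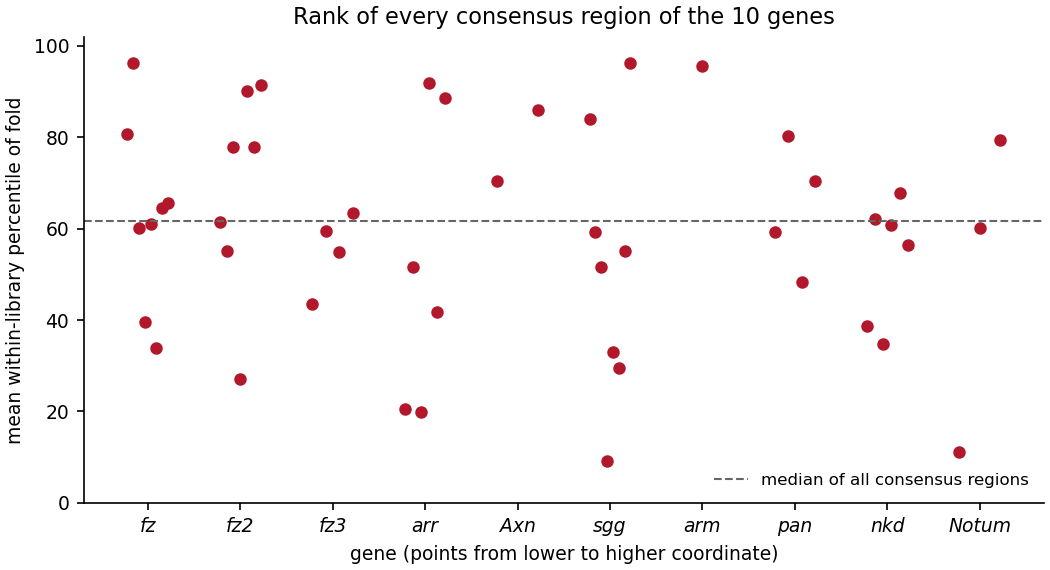
Mean within-library percentile of fold enrichment for each of the 49 consensus regions, by gene, with the points of a gene placed from lower to higher coordinate. The dashed line is the median of all consensus regions, 61.7; the members' median is 60.1, and most genes have points on both sides of the line.

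Of the 49 regions 37 (75.5%) were centred inside a gene of the list and 12 in a flank, and the gene spans make up 79.8% of the windows. Regions centred inside were found at 9 of the 10 genes, against 12.1% of protein-coding genes and 47.7% of the long ones. Regions centred within 1 kb of either end numbered 13 and were found at 8 of the 10 genes, against 19.7% and 41.0%. The genes with none were arm, whose region was 1025 bp from an end, and nkd, whose nearest was at 1476 bp, and the farthest region inside it was that of pan at 910 bp. Neighbours shared many regions: 18 of the 49 lay in the 5 kb window of another protein-coding gene too, and 3 lay nearer to another gene than to the listed one, 2 at fz3 and 1 at Axn.

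Of the 49 regions, 18 (36.7%) had another consensus region within 500 bp, against 29.7% of all consensus regions. They formed 9 pairs, 2 each at fz2 and sgg and 1 each at fz3, arr, pan, nkd and Notum. Median width was 237 bp for the members and for all consensus regions. The summits of the 3 libraries spanned a median of 34 bp in both. The SD of fold was 14.3% of the mean at the median member region and 13.1% over all. The highest of the 3 values came from replicates 1, 2 and 3 in 16, 21 and 12 of the 49 regions, while over all consensus regions the shares were 24.8%, 40.1% and 35.1%.

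The window of 5 kb left out stronger neighbours at pan and nkd. Just inside the limit the outermost region was that of fz3 at 4.7 kb, with a mean of 6.50. Just outside it, 7 consensus regions overlapped windows of 10 kb. One in asRNA:CR43957 reached into this window with its inner edge only, with its centre 10.1 kb from pan, at chr4:58918-59336, had 17.9, 14.9 and 15.3 (16.1 ± 1.63), higher in every library than the strongest of pan itself. One in CG18135, 7.0 kb from nkd at chr3L:18996467-18996960, had 13.8, 14.1 and 13.3 (13.7 ± 0.395), above all regions of nkd. Near Notum, a region with a mean of 7.52 lay in Diap1, a caspase inhibitor gene, 8.8 kb away.

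Of 40 further genes of Wingless signalling, 31 (77.5%) held a consensus region in the same windows, where 40.2% of protein-coding genes did. Without flanks 26 of the 40 did, against 16.1% of protein-coding genes. The only regions of hyx and Tnks lay 4999 and 4956 bp outside these genes. The list has a median gene length of 8.19 kb, and 54.8% of protein-coding genes of 5 to 10 kb held a region. All 7 extracellular and other receptor genes held one, led by drl, a receptor gene for Wnt5 (20.2 ± 2.44; SD, n = 3), and otk2 (18.3 ± 3.43), and fz4, the remaining Frizzled gene, reached 8.68 ± 1.99, close to fz3. All 8 target genes held one, with Dll (20.6 ± 2.06) and sc (19.6 ± 1.92) highest. Among cytoplasmic transducers 5 of 7 did, led by the casein kinase genes CkIalpha (21.3 ± 2.02) and gish (16.4 ± 2.21), while Apc2 and dsh, the Dishevelled gene, did not. The strongest region of CkIalpha stood above those of its partners in the destruction complex, Axn and sgg, in every library.

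Of 8 nuclear genes, whose median length was 5.91 kb, 5 (62.5%) held a consensus region, near the 54.8% of protein-coding genes of 5 to 10 kb. CtBP (12.9 ± 1.35) and nej (11.9 ± 0.847) were highest. lgs and pygo, which encode the adaptors that link Arm to chromatin, had no peak in any library, and Chi had peaks of fewer libraries only. Of 10 ligand and secretion genes, of median length 9.07 kb, 6 (60%) held a consensus region, also near that share. They were led by wg (30.6 ± 1.07) and its neighbour Wnt6 (18.3 ± 0.870), and Wnt4, wntD, por and wls held none. wg, the ligand gene, stood above the strongest region of each of the 10 receptor, transducer and feedback genes in every library.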

How the data were processed

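Anti-HA CUT&Tag was measured in 3 libraries of 1 group. The submitters' processing notes name dm6 as the build, MACS2, Bowtie2 and Bowtie, Trim Galore and FastQC, deepTools, HOMER, ChIPseeker and R 4.2.1. Which aligner was used, the read filters and the other versions were not given in the sources used here. Peaks were called per library, since peak names in the deposited lists carry 1 library. The deposited columns are fold enrichment as a linear ratio, −log10 p-value, −log10 q-value, summit offset and a score, which in the deposited lists follows the q-value. The lowest deposited −log10 q-value was 2.00 in replicate 1 and 2.02 in replicate 3. The lists hold no read counts, so depth is unknown and no counting interval is given. Fold describes and ranks peaks within a library.

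Peaks on 2L, 2R, 3L, 3R, 4, X and Y that overlapped by at least 1 bp were merged (Python 3.11.15, pandas 2.3.3), and counting was checked on planted peaks and with bedtools 2.31.1. Gene spans came from the RefSeq table of the same assembly, without strand or exons. No sequence was used here, so the planned promoter motifs were not searched. Members and lists were chosen with earlier results of these data known. All 10 members are named; of the wider list the 2 strongest genes of each role group and those without a region are named, with fz4 added after its values were seen. No test was run, since there is 1 group and no control library. Alternatives concerned libraries needed, flank, peak threshold and overlap. The alternative that assigns regions to the nearest gene was chosen after seeing the data.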

Additional observations from a re-analysis of the deposited data

How the results depend on the processing

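All 10 genes held a consensus region under every one of 14 alternatives except when only peaks above their library's median fold were used, where 9 did and fz3 dropped out. Their 49 regions became 83 when a peak of 1 library was enough and 22 with peaks above the median fold. They numbered 52 to 58 with a replicate left out, but a region then needed peaks of only 2 libraries, so the count could hardly fall. The wider list ran from 25 to 34 of 40 genes over 13 alternatives. With peaks above the median fold, 5 genes rather than 8 had a region within 1 kb of an end. Of 159 values of a strongest region, 156 moved by less than the SD between libraries. This says little about stability, because many alternatives kept the same region with the same values. Leaving out a replicate also cannot move the mean of an unchanged region by as much as that SD. The 3 that moved more were nkd without replicate 2 (8.78 against 8.67), and pan (16.1) and nkd (13.7) with 10 kb flanks. Such flanks take in regions of neighbouring genes. A value within the SD could still belong to another region. At fz3 the outer region of the pair at the lower-coordinate end became the strongest without replicate 2 (8.23) or 3 (8.59). The inner one did so without flanks (7.61). At fz2 the region 43.1 kb in became the strongest without replicate 1 (14.3). Counting only regions nearest to the listed gene left 46. The background moves with the flank: 2239 protein-coding genes were called without one, 3333 with 1 kb and 7699 with 10 kb, against 5610. No paired analysis was possible because there is 1 group. Depth is unknown, so a gene without a region had none detectable in these lists.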
